A study of Mus musculus with 16 samples.

Results

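Inflammatory chemokine ligands are small secreted proteins that draw leukocytes to a site by binding receptors on their surface. The account below covers 10 of their genes, Cxcl1, Cxcl2, Ccl3, Ccl4, Ccl2, Ccl6, Ccl9, Ccl5, Cxcl9 and Cxcl10, out of 20659 mouse gene symbols on the array. They were picked as a gene family, by symbol, and all 10 had a usable probe and entered the tests.

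CD11b-positive cells, which are mainly neutrophils, monocytes and macrophages, were sorted from spleen or bone marrow, and their RNA was hybridised to 16 one-colour Agilent arrays. Each array held RNA pooled from 5 mice, and each combination of genotype, tissue and diet had 1 array. The p-values rest on the spread left after a mean for each genotype and tissue and a diet effect per tissue were fitted. This spread holds differences between pools and also diet differences that vary with genotype. With 1 array per combination these cannot be told apart. The genotypes were HDC-/- (no histidine decarboxylase, the enzyme that forms histamine), mice labelled STAT4-/- or STAT6-/- (transcription factors that relay interleukin signals) and WT. The diets were a high-fat diet (HFD) for 3 months, used to set up atherosclerosis, and the control diet. In each tissue the arrays were thus HDC-/- on HFD and on control diet, labelled STAT4-/- on HFD and on control diet, labelled STAT6-/- on HFD and on control diet, and WT on HFD and on control diet. All mice were labelled male, and the age of the mice and the promoter or extent of each deletion were not given in the sources used here.

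Most genes of this family are switched on within hours by microbial products, interleukin-1 or tumour necrosis factor through the transcription factor NF-kB, while Cxcl9 and Cxcl10 respond to interferons through STAT proteins and interferon regulatory factors. Cxcl1 and Cxcl2 act on the receptor Cxcr2 and draw neutrophils. Ccl3, a ligand of Ccr1, and Ccl4 are made by activated macrophages, T cells and natural killer cells. Ccl2 draws Ccr2-bearing classical monocytes out of the marrow, and it has a long-studied role in atherosclerosis. Ccl6 and Ccl9, found in rodents, are ligands of Ccr1 that myeloid cells make without stimulation. Ccl5 binds Ccr1 and Ccr3 and is abundant in T cells, natural killer cells and platelets, and Cxcl9 and Cxcl10 draw T cells and natural killer cells that bear Cxcr3.

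The promoters of Cxcl1, Cxcl2, Cxcl9 and Cxcl10 are shown because Cxcl1 and Cxcl2 had low levels on the control-diet HDC-/- arrays, without passing the test against WT, and Cxcl9 and Cxcl10 differed between the tissues. Each stretch is 300 bases of mouse chromosome 5 from RefSeq (build GRCm38.p6), read in the direction of the gene, with Cxcl1 at chr5:90890995-90891294 on the plus strand, Cxcl2 at chr5:90903649-90903948 on the plus strand, Cxcl9 at chr5:92328030-92328329 on the minus strand and Cxcl10 at chr5:92348840-92349139 on the minus strand. Capitals mark matches to the kappa B consensus bound by NF-kB, to the interferon-stimulated response element (GAAA, any 2 bases, GAAA) or to the AP-1 motif (TGANTCA).
Cxcl1: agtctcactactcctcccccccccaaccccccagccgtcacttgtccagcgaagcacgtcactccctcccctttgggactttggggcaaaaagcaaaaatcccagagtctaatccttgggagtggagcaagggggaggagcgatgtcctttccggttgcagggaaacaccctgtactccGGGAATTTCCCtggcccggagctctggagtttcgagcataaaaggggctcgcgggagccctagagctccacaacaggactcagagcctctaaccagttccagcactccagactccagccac
Cxcl2: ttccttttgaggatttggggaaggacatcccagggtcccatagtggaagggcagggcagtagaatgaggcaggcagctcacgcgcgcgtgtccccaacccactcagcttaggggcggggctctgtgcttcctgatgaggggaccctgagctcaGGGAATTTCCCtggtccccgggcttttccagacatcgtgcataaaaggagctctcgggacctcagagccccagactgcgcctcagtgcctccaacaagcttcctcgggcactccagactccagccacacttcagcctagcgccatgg
Cxcl9: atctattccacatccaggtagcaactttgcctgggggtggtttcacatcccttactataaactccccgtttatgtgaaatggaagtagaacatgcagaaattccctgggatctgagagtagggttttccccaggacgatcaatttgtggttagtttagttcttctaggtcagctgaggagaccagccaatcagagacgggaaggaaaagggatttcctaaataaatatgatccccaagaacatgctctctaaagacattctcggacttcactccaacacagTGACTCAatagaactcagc
Cxcl10: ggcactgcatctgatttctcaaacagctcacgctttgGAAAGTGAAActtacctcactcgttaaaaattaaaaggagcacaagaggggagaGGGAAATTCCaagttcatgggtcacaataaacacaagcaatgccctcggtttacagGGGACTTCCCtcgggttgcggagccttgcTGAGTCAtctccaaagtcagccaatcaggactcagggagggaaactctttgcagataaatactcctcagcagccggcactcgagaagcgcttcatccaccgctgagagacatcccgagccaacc
Of the 10 genes, 7 had a promoter in the RefSeq table. Both strands were searched, and positions are counted from the start site. The kappa B consensus occurred in 4 of these 7 (Cxcl1, Cxcl2, Cxcl10 and Ccl9), against 4.51% of all 32851 promoters of the same length. Cxcl1 and Cxcl2 held the same letters, GGGAATTTCC, at -71 to -62 in Cxcl1 and at -97 to -88 in Cxcl2, each overlapped by a match on the other strand. Cxcl10 held 2 kappa B matches, GGGAAATTCC at -159 to -150 and GGGACTTCCC at -103 to -94. The interferon-stimulated response element occurred in 1 of the 7, Cxcl10, as GAAAGTGAAA at -213 to -204, against 3.44% of all promoters. The AP-1 motif occurred in Ccl9, Cxcl9 and Cxcl10 (7.81% of all promoters), and the motif TATAAA, not in capitals above, in Ccl9 and Cxcl9 (13.6%). The Cxcl genes lie on chromosome 5 and the Ccl genes on chromosome 11.

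Of all noncontrol probes, 59.9% to 85.3% were well above background per array, and 28783 features were tested. Itgam, which encodes CD11b, was detected on every array (log2 level 3.10 to 6.01). Hdc stood at 0.94 to 1.87 on the 4 HDC-/- arrays, against 4.02 to 5.75 on 11 others (its spot was left out on 1 array). Stat4 did not stand low on the 4 arrays labelled STAT4-/- (0.37 to 3.46, against -0.93 to 1.30 on the other 12), and Stat6 lay within the range of the other arrays on those labelled STAT6-/- (2.51 to 2.99, against 2.30 to 4.10). The arrays labelled STAT4-/- differed by diet in both genes. Stat4 read 0.52 in spleen and 0.37 in marrow on control diet, against 3.46 and 2.71 on HFD. Stat6 read 2.54 in spleen and 2.30 in marrow on control diet, against 3.91 and 4.08 on HFD. On the WT and HDC-/- arrays Stat6 read 2.95 to 4.10. Where the probes lie relative to the deletions was not given, so for these genotypes "labelled" is kept throughout. On 4 control-diet arrays, HDC-/- and labelled STAT4-/- in both tissues, the Y-linked genes averaged -8.42 to -5.61, against -0.65 to 0.33 on the other 12. Xist read -2.15 to -1.61 on these 4 and -7.08 to -3.54 on the others (its spot was left out on 1 array). These readings do not match the male label, which was kept as given, and the reason was not tested. The HFD arrays of both genotypes are among the other 12, so within these genotypes diet and this difference cannot be told apart. The HFD spleen array labelled STAT4-/- and the control-diet HDC-/- marrow array correlated more closely with the other tissue than with their own. For many of the results below, values without these sets are also given.

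A log2 level below is the log2 signal minus the 75th percentile of that array, so that 0 is the level of that percentile, and levels of different genes are not compared. In the 16 arrays, 8 of the 10 ligands were well above background everywhere. Cxcl1 was not well above background on the control-diet HDC-/- marrow array, nor Cxcl9 on the HFD marrow array labelled STAT6-/-. Ccl6 varied over 5.21-fold from the dimmest to the brightest array and Ccl9 over 4.73-fold, whereas Ccl5 varied over 69.4-fold and Cxcl2 over 76.7-fold. Ccl2, the only member spotted 10 times per array, had a spread between spots of 0.03 to 0.17 (SD of log2 signal), small beside its range of 2.88 over the arrays. The 2 Cxcl9 probes followed each other over the arrays (r = 0.97).

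**Figure D1:**
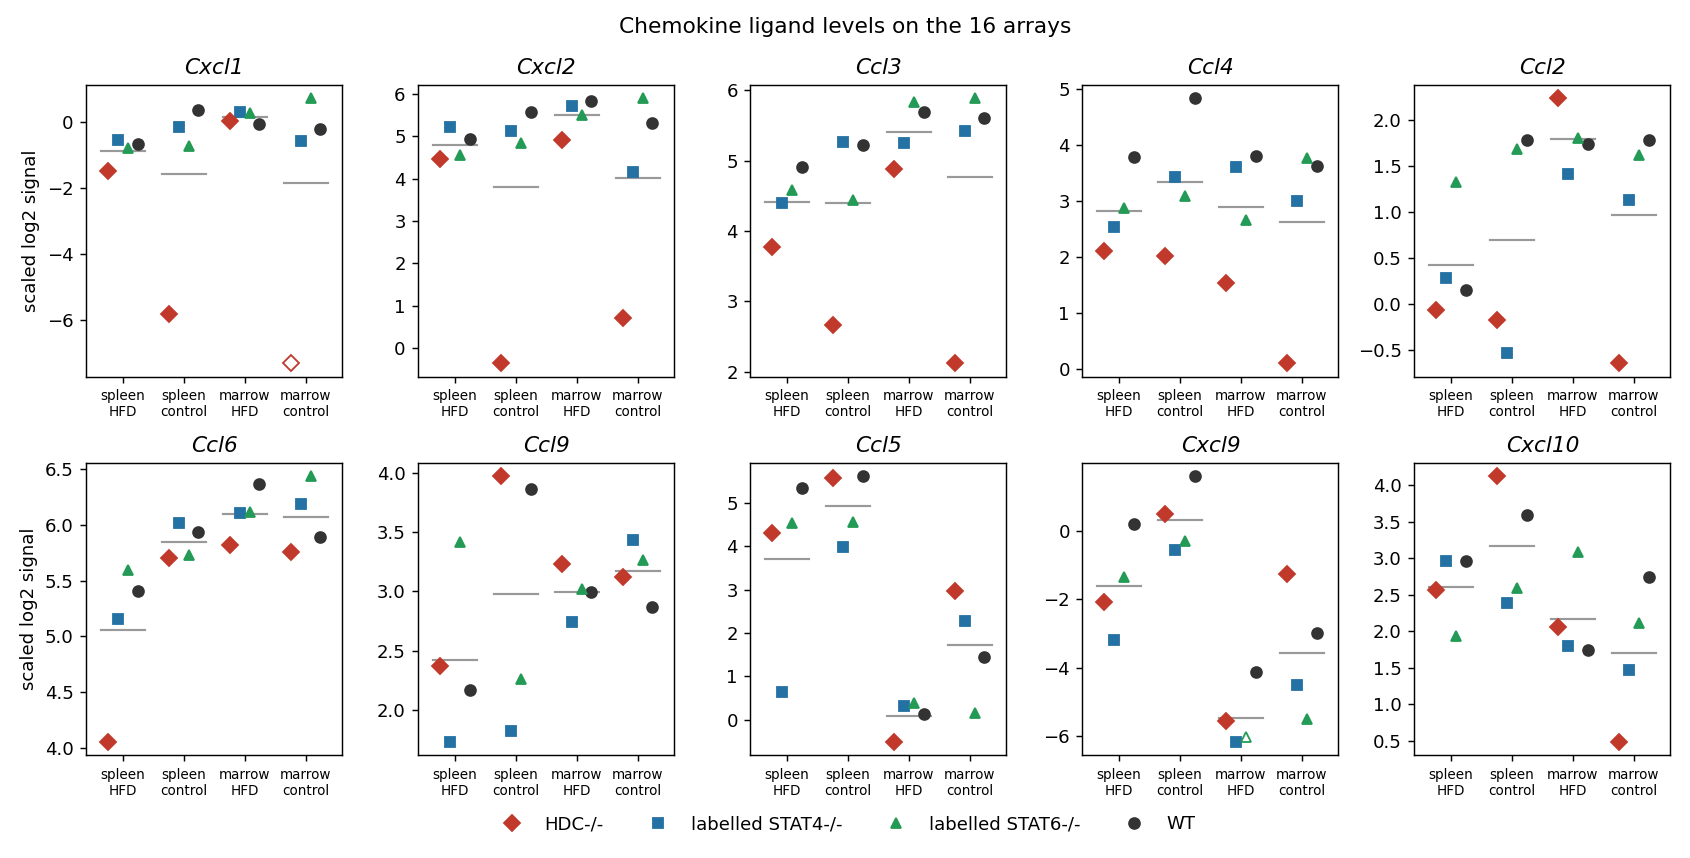
Log2 level of each ligand (vertical axis, log2 signal minus the array's 75th percentile) on the 16 arrays by tissue and diet, with 1 point per array, grey bars at the mean of 4 arrays and open points where the probe was not well above background. Cxcl1 and Cxcl2 on the control-diet HDC-/- arrays (-5.82 and -7.32 for Cxcl1, -0.36 and 0.71 for Cxcl2) lie far below the other 14, and Ccl5 and Cxcl9 are higher in spleen.

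Which of these genes separated spleen from marrow CD11b-positive cells? The ligands that draw T cells and natural killer cells were higher in spleen. Cxcl9 had a lowest, median and highest log2 level of -3.18, -0.42 and 1.59 on the 8 spleen arrays, against -6.15, -4.99 and -1.27 on the 8 marrow arrays. Ccl5 had 0.64, 4.55 and 5.61 in spleen, against -0.51, 0.35 and 2.98 in marrow. For both genes the ranges of the tissues overlapped, through the HFD spleen array labelled STAT4-/- (Ccl5 0.64, Cxcl9 -3.18) and the control-diet HDC-/- marrow array (Ccl5 2.98, Cxcl9 -1.27). The change was 3.87 for Cxcl9 (log2, SE 0.38; limma, adjusted p = 0.000276) and 3.42 for Ccl5 (SE 0.44, adjusted p = 0.000806), each higher in 8 of 8 genotype and diet combinations, as for 9.28% of all features. Without the arrays nearer the other tissue these changes were 4.39 and 4.09, and without those of low Y-linked signal 4.06 and 3.43. In RNA from sorted pools, more cells of a type and more RNA per cell cannot be told apart.

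Smaller tissue differences were seen for 2 further ligands. Cxcl10 had a lowest, median and highest level of 1.93, 2.78 and 4.12 in spleen, against 0.49, 1.93 and 3.09 in marrow, a change of 0.95 (SE 0.31, limma adjusted p = 0.0397, higher in 7 of 8 pairs). Ccl6 had 4.05, 5.65 and 6.02 in spleen, against 5.76, 6.11 and 6.44 in marrow, and was lower by 0.64 on the log2 scale (change -0.64, SE 0.20, limma adjusted p = 0.0368, lower in 7 of 8 pairs). In both cases the tissues overlapped. When each of the 16 arrays was left out in turn, the call of Cxcl10 was lost in 11 cases and that of Ccl6 in 12, whereas those of Cxcl9 and Ccl5 were lost in 0. Without the arrays nearer the other tissue the change was 0.58 for Cxcl10 (adjusted p = 0.147) and -0.63 for Ccl6 (adjusted p = 0.0767), and without those of low Y-linked signal 0.75 (adjusted p = 0.213) and -0.85 (adjusted p = 0.084). With normexp background correction the median of all features moved to -0.52, and Ccl6, at -0.70, stood 0.18 below it on the log2 scale (-0.18), while Cxcl10, at 0.95, stood 1.47 above it.

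In all, 3 of the 10 ligands were called higher and 1 lower in spleen, where 31.7% of all features were called (15.1% higher and 16.6% lower). Of the calls over all features 47.6% were higher in spleen, or 63.7% when the percentile was taken over probes above background on all arrays and 21.0% with normexp. The other 6 ligands did not pass: Cxcl1 (-0.38, SE 0.86), Cxcl2 (-0.46, SE 0.64), Ccl3 (-0.68, SE 0.35), Ccl4 (0.32, SE 0.27), Ccl2 (-0.83, SE 0.36) and Ccl9 (-0.38, SE 0.31), with limma adjusted p of 0.108 to 0.767. Leaving out the control-diet HDC-/- marrow array alone brought Ccl2 (-1.17, adjusted p = 0.0106) and Ccl3 (-1.03, adjusted p = 0.0105) past the threshold. The median over the 10 ligands was -0.38, against -0.05 over all features. Slides were inferred from the scan date in the file headers, arrays with the same date being counted as 1 slide. So assigned, slides held a single tissue each, so differences between tissues and between slides cannot be told apart. With slide as a random block in limma 3 of the 10 passed, Cxcl10 missing at an adjusted p of 0.0688. The correlation fitted within slides was -0.005. This fit cannot separate slide from tissue, because no slide held both tissues.

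Among the other genes of the pathway, 5 of 20 tested further chemokine ligands were called higher and 6 lower in spleen. One of the 5, Ccl1, a ligand for Ccr8, was well above background on 7 of 8 spleen arrays and 0 of 8 marrow arrays. It thus passed the filter only through spleen, and its call adds no support. Only a bound can be given, a mean level at least 1.86-fold higher in spleen. Cxcl13, also among the 20, was above background on 6 of 8 spleen arrays and 0 of 8 marrow arrays, so it too entered the tests only through spleen. Lower in spleen were Cxcl12, which holds cells in the marrow (-4.36, SE 0.69), Cxcl5, a neutrophil-drawing ligand (-1.89, SE 0.26), and Ccl7, a monocyte-drawing ligand (-2.07, SE 0.36). On the spleen arrays Cxcl12 was above background on 7 of 8, Cxcl5 on 6 of 8 and Ccl7 on 3 of 8. Of 10 receptors of inflammatory ligands, 3 were called higher, among them Ackr2, which takes up and degrades CC ligands (3.56, SE 0.32, above background on 5 of 8 marrow arrays), and Cxcr3, the receptor of Cxcl9 and Cxcl10 (2.09, SE 0.40). Ccr1, a receptor of Ccl3, Ccl5, Ccl6 and Ccl9, was lower (-1.79, SE 0.27). In the list of 15 interferon-gamma genes 4 were higher and 0 lower, with Ifng itself at 3.70 (SE 0.55), Gbp3 at 1.87 (SE 0.35), Irf8 at 1.76 (SE 0.28) and Iigp1 at 1.26 (SE 0.33). The 16 genes of NF-kB and its inducers gave 2 higher (Relb 1.52, Nfkb2 0.87) and 2 lower (Tlr2 -0.88, Nfkb1 -0.58). These calls are from limma at an adjusted p under 0.05, and single genes of the lists were not refitted under the alternatives.

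Markers of many cell types moved with Ccl5 and Cxcl9. Of 10 natural killer cell genes 9 were called higher in spleen, and their mean log2 level was -2.73 to 2.00 on the spleen arrays, against -3.52 to -0.63 on the marrow arrays. All 10 were above background on every array, and the lowest spleen value and the highest marrow value belonged to the same 2 arrays that made Ccl5 and Cxcl9 overlap. Of 9 tested T cell genes 8 were higher and 1 lower (mean level -1.20 to 1.84 in spleen, against -2.33 to -1.29 in marrow), and of 9 B cell genes 9 were higher (-0.82 to 2.53 in spleen, against -2.84 to -0.34 in marrow). Called higher too were 9 of 9 conventional dendritic cell genes (median change 2.82), 9 of 12 red pulp macrophage genes (2.55), 5 of 7 plasmacytoid dendritic cell genes and 6 of 7 plasma cell genes. The conventional dendritic cell gene Xcr1 was above background on 7 of 8 spleen arrays and 0 of 8 marrow arrays. It thus passed the filter only through spleen, and its call adds no support. Neutrophil genes went the other way, with 6 of 12 lower in spleen (3.74 to 5.70, against 4.95 to 5.84 in marrow). So did 4 of 10 megakaryocyte and platelet genes, 3 of 7 classical monocyte genes and 6 of 11 eosinophil, basophil and mast cell genes, with 0 higher in each list. Of pro-B and pre-B cell genes 2 of 9 were higher and 5 lower. Higher were 4 of 8 nonclassical monocyte genes and 5 of 8 erythroid genes, with 0 lower in either list. The part of these cells in the ligand differences was not tested.

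**Figure D2:**
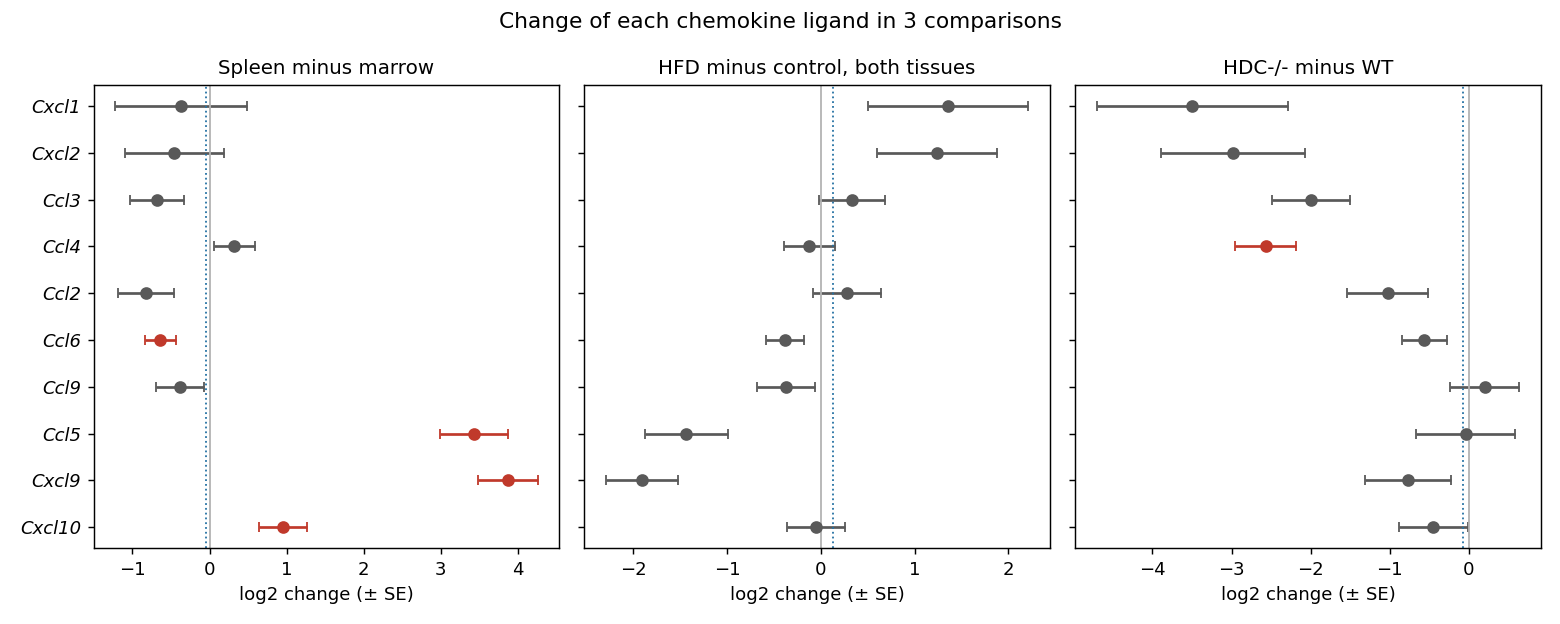
Log2 change of each ligand with its standard error (horizontal axis) for spleen minus marrow, HFD minus control over both tissues and HDC-/- minus WT. Red points passed an adjusted p of 0.05, the grey line is 0 and the dotted line the median of all features. Cxcl9 and Ccl5 have the largest tissue changes of the 10 (3.87 and 3.42), and Ccl4 alone passed against WT (-2.57).

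Did the ligands differ on the HDC-/- arrays? Ccl4 was lower there, and Cxcl1, Cxcl2 and Ccl3 had low values on the control-diet arrays without passing the test. Ccl4 had levels of 2.10 (HFD) and 2.02 (control) in HDC-/- spleen and 1.53 (HFD) and 0.10 (control) in HDC-/- marrow. In WT it had 3.79 (HFD) and 4.83 (control) in spleen and 3.79 (HFD) and 3.62 (control) in marrow. Every HDC-/- array lay below every WT array, as for 1.98% of all features. The change was -2.57 (SE 0.38, limma adjusted p = 0.0429), or 5.94-fold lower. Ccl4 was thus 1 of 10 ligands called against WT, where 0.153% of all features were called.

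Ccl3 had 3.77 (HFD) and 2.66 (control) in HDC-/- spleen and 4.88 (HFD) and 2.12 (control) in HDC-/- marrow, against 4.91 to 5.69 on the 4 WT arrays. Cxcl2 had 4.46 (HFD) and -0.36 (control) in HDC-/- spleen and 4.92 (HFD) and 0.71 (control) in HDC-/- marrow, against 4.93 to 5.84 on the WT arrays. Cxcl1 had -1.47 (HFD) and -5.82 (control) in HDC-/- spleen and 0.04 (HFD) and -7.32 (control, not well above background) in HDC-/- marrow, against -0.68 to 0.35 on the WT arrays. The HDC-/- arrays of Ccl3 and Cxcl2 lay below all WT arrays, as they did for 1.98% of all features, while for Cxcl1 the HFD marrow array lay within the WT range. None of these 3 passed: Ccl3 stood at -2.0 (SE 0.49, limma adjusted p = 0.182), Cxcl2 at -2.98 (SE 0.91, adjusted p = 0.270) and Cxcl1 at -3.50 (SE 1.21, adjusted p = 0.329, with 3 of 4 HDC-/- arrays above background).

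For these 4 ligands the control-diet arrays differed more from WT than the HFD arrays did. Cxcl1 in control-diet marrow was at least 51.3-fold lower in HDC-/- than in WT, taking the lowest signal that was well above background on that array as the bound. Cxcl2 on the control diet differed by -5.93 between HDC-/- and WT spleen and by -4.60 between HDC-/- and WT marrow, but on HFD by -0.47 in spleen and -0.93 in marrow. Ccl4 differed on HFD too, by -1.69 in spleen and -2.27 in marrow. The control-diet arrays labelled STAT4-/-, which share the low Y-linked signal, had Cxcl1 at -0.14 in spleen and -0.58 in marrow and Cxcl2 at 5.14 in spleen and 4.17 in marrow. Without the 4 arrays of low Y-linked signal, Ccl4 stood at -1.92 (adjusted p = 0.218), Ccl3 at -1.01 (adjusted p = 0.306), Cxcl2 at -0.63 (adjusted p = 0.529) and Cxcl1 at -0.40 (adjusted p = 0.716). Without the arrays nearer the other tissue, Ccl4 stood at -2.19 (adjusted p = 0.142), Ccl3 at -1.30 (adjusted p = 0.258), Cxcl2 at -2.07 (adjusted p = 0.564) and Cxcl1 at -1.71 (adjusted p = 0.629).

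**Figure D3:**
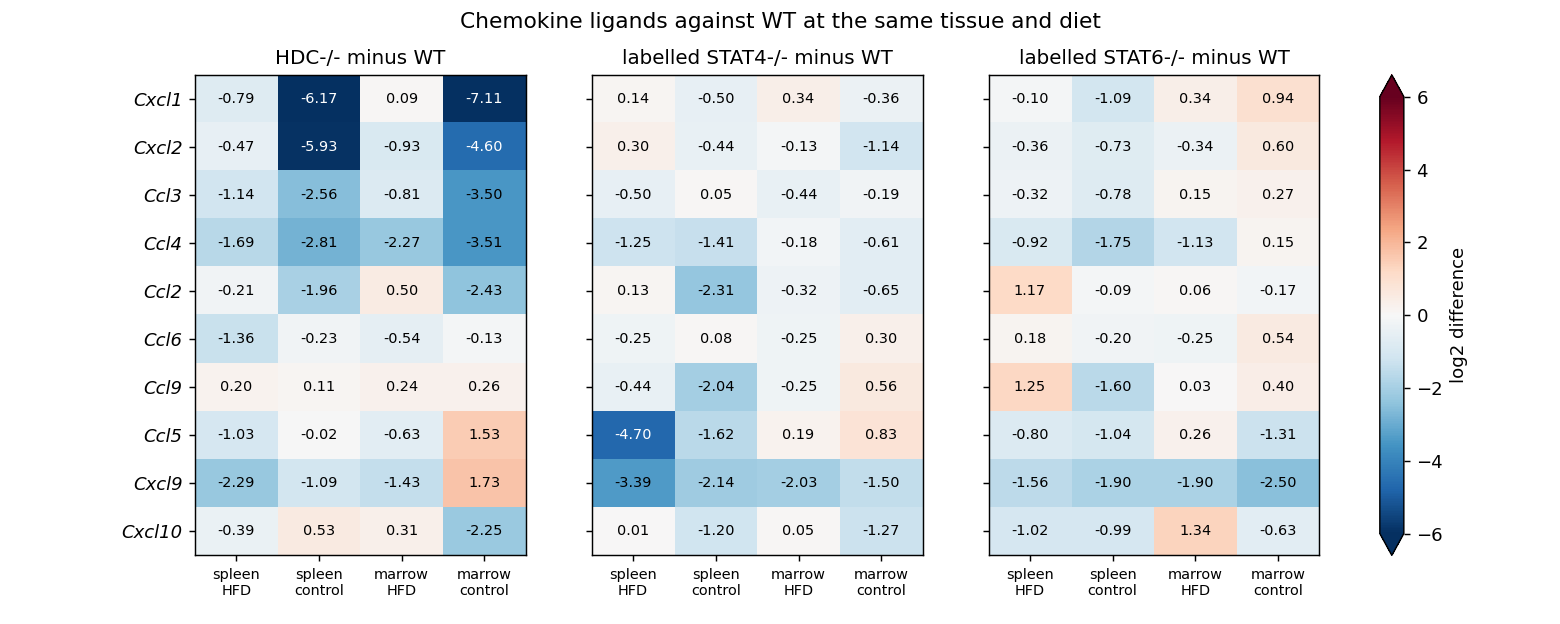
Log2 difference from the WT array of the same tissue and diet (colour and number) for each ligand, in HDC-/- (left) and in mice labelled STAT4-/- (middle) and STAT6-/- (right). Differences on the control-diet HDC-/- arrays reach -6.17 (spleen) and -7.11 (marrow) for Cxcl1, the second from a spot not well above background, and Cxcl9 is negative in all 4 columns for both labelled STAT genotypes.

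The call of Ccl4 against WT was lost in 13 of 16 cases when 1 array was left out, kept only without the HFD HDC-/- marrow array or without either marrow array labelled STAT6-/-, with adjusted p between 0.0189 and 0.328 over all settings. It was also lost with quantile normalization (-2.49, adjusted p = 0.0583) and with the percentile over probes above background (-2.50, adjusted p = 0.0555), and its sign held throughout, between -2.95 and -1.92. Without the HFD HDC-/- marrow array 3 ligands passed, Ccl4 (-2.95, adjusted p = 0.0191), Ccl3 (-2.70, adjusted p = 0.0227) and Cxcl1 (-5.29, adjusted p = 0.0377). By scan date, HDC-/- and WT lay on different slides, but HDC-/- shared slides with the arrays labelled STAT6-/-. Against those, 0 of 10 ligands passed in limma (0.0104% of all features were called), with 5 of 10 at an unadjusted p under 0.05, as were 6.43% of features. Ccl4 stood at -1.66 (SE 0.38, adjusted p = 0.453) and its groups did not overlap, as for 0.740% of features, while Ccl3 stood at -1.83, Cxcl2 at -2.77, Cxcl1 at -3.52 and Ccl2 at -1.27, and the others at -0.63 (Ccl6), -0.12 (Cxcl10), 0.18 (Ccl9), 0.68 (Ccl5) and 1.2 (Cxcl9, or -0.01 without the arrays of low Y-linked signal).

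With all arrays in the fit, the remaining ligands stood nearer to WT. Ccl2 was at -1.02 (SE 0.51, limma adjusted p = 0.506), or -0.34 without the arrays nearer the other tissue and -0.04 without those of low Y-linked signal, with low levels on the control-diet HDC-/- arrays (-0.17 in spleen, -0.64 in marrow) and 2.24 on the HFD HDC-/- marrow array, the highest of all 16. Ccl6 lay lower in 4 of 4 pairs, as for 8.03% of features (-0.56, SE 0.29, adjusted p = 0.510), and Ccl9 lay higher in 4 of 4 pairs, as for 6.30% (0.20, SE 0.44, adjusted p = 0.901), but stood at -0.09 without the arrays of low Y-linked signal. Ccl5 stood at -0.04 (SE 0.62), Cxcl9 at -0.77 (SE 0.54) and Cxcl10 at -0.45 (SE 0.43). Without the arrays of low Y-linked signal Ccl5 stood at -1.06 (adjusted p = 0.391) and Cxcl9 at -1.97 (adjusted p = 0.178). Ccl4 stood at -1.92 in that setting, so Cxcl9 was there no nearer to WT than Ccl4. Without the arrays nearer the other tissue Cxcl9 stood at -1.56. Its differences from WT were -2.29 (HFD) and -1.09 (control) in spleen, and -1.43 (HFD) and 1.73 (control) in marrow. With all arrays the median of the 10 ligands was -0.90, against -0.07 over all features.

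Of the pathway genes, Ccrl2, a chemokine receptor relative that binds the attractant chemerin, was called lower in HDC-/- than in WT (-3.11, SE 0.48, limma adjusted p = 0.043), the only one of 10 receptors. Cxcl3, another Cxcr2 ligand, stood at -3.26 (SE 1.08, adjusted p = 0.313), and 0 of 20 further ligands passed. In the list of NF-kB and its inducers 0 of 16 passed and 1 had a positive change (median -1.04), with Rel, an NF-kB subunit, at -2.69 (SE 0.66) and Tnfaip3, an NF-kB inhibitor, at -2.16 (SE 0.76). Of the interferon-gamma genes 0 of 15 passed and 3 were positive, with Gbp2 at -2.13 (SE 0.53) and Igtp at -1.59 (SE 0.49). The mean level of the NF-kB list was 1.48 on the control-diet HDC-/- spleen array, against 1.80 to 2.92 on the other 7 spleen arrays, and 0.82 on the control-diet HDC-/- marrow array, against 2.05 to 2.74 on the other 7 marrow arrays.

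Markers of several cell types also stood apart on these control-diet HDC-/- arrays. The 12 neutrophil genes averaged 3.74 on the spleen array, against 4.52 to 5.70 on the other 7, and 4.95 on the marrow array, against 5.40 to 5.84 on the other 7, with all 12 above background. The 8 erythroid genes averaged -1.10 on the spleen array, against 0.98 to 3.24 on the other 7. On the marrow array they went the other way, at 1.37, against -1.08 to 0.97 on the other 7. On the marrow array the 9 pro-B and pre-B cell genes averaged 1.76, against -4.21 to -0.37, the 12 red pulp macrophage genes 1.17, against -1.50 to -0.16, and the 10 natural killer cell genes -0.63, against -3.52 to -1.59. In spleen the pro-B and pre-B cell genes (-3.07, against -3.79 to -2.57) and red pulp macrophage genes (2.04, against 0.55 to 2.34) lay within the range of the other 7. The natural killer cell genes there averaged 2.00, against -2.73 to 1.85. Their part in the levels of Cxcl1, Cxcl2, Ccl3 and Ccl4 was not tested.

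How did the ligands compare with WT on the arrays labelled STAT4-/- and STAT6-/-? Both comparisons and the one with HDC-/- share the same 4 WT arrays. By scan date, the arrays labelled STAT4-/- shared slides with WT, whereas those labelled STAT6-/- lay on other slides. For labelled STAT6-/- against WT, genotype and slide thus cannot be told apart. Cxcl9 was the lowest of the 10 in both comparisons. It had -3.18 (HFD) and -0.55 (control) in spleen and -6.15 (HFD) and -4.49 (control) in marrow on the arrays labelled STAT4-/-, and -1.35 (HFD) and -0.30 (control) in spleen and -6.03 (HFD, not well above background) and -5.50 (control) in marrow on those labelled STAT6-/-. In WT it had 0.21 (HFD) and 1.59 (control) in spleen and -4.12 (HFD) and -2.99 (control) in marrow. Within each tissue the labelled STAT arrays thus lay below both WT arrays, and the share of all features that did so was not counted. Over both tissues together the levels overlapped with WT.

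Cxcl9 stood at -2.26 (SE 0.54, limma adjusted p = 0.343) on the arrays labelled STAT4-/- and at -1.97 (SE 0.54, adjusted p = 0.400) on those labelled STAT6-/-, lower in 4 of 4 pairs each, as were 4.45% of features for labelled STAT4-/- and 6.92% for labelled STAT6-/-. In neither comparison did any of the 10 pass in limma (0.0174% of all features were called for labelled STAT4-/- and 0.0313% for labelled STAT6-/-), and 2 of 10 had an unadjusted p under 0.05 in each, Cxcl9 and Ccl4, against 9.86% of features for labelled STAT4-/- and 6.85% for labelled STAT6-/-. Ccl4 stood at -0.86 (SE 0.38) for labelled STAT4-/- and at -0.91 (SE 0.38) for labelled STAT6-/-, and on the arrays labelled STAT4-/- its levels did not overlap with WT, as for 0.764% of features. For labelled STAT4-/- the other estimates were Cxcl1 -0.10, Cxcl2 -0.35, Ccl3 -0.27, Ccl2 -0.79, Ccl6 -0.03, Ccl9 -0.54, Ccl5 -1.32 and Cxcl10 -0.60, and for labelled STAT6-/- Cxcl1 0.02, Cxcl2 -0.21, Ccl3 -0.17, Ccl2 0.24, Ccl6 0.07, Ccl9 0.02, Ccl5 -0.72 and Cxcl10 -0.32. Without the arrays of low Y-linked signal Cxcl9 stood at -2.83 and Ccl5 at -2.48 for labelled STAT4-/-, and without those nearer the other tissue Cxcl9 stood at -2.02 and Ccl5 at -0.62. Ccl5 on the HFD spleen array labelled STAT4-/- differed from WT by -4.70, the widest gap of that ligand, and this array is one of those nearer the other tissue. Of 15 interferon-gamma genes 0 passed in either comparison, but Gbp2 stood at -3.12 (SE 0.53) and Igtp at -3.11 (SE 0.49) for labelled STAT4-/-, and Gbp2 at -2.78 (SE 0.53) and Igtp at -2.88 (SE 0.49) for labelled STAT6-/-. Both encode interferon-inducible GTPases. Of the natural killer cell genes 0 of 10 were positive in either comparison (median -1.48 for labelled STAT4-/- and -1.07 for labelled STAT6-/-), and of the B cell genes 0 of 9 (median -0.92 for labelled STAT4-/- and -0.45 for labelled STAT6-/-). Their part in the levels of Cxcl9 and Ccl5 was not tested.

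Did HFD change the ligands? With limma 0 of 10 passed in spleen, in marrow or over both tissues, and 0.00% of all features did. At an unadjusted p under 0.05 stood 2 of 10 ligands over both tissues, Cxcl9 and Ccl5, and 12.4% of all features. There were 2 in spleen, Cxcl9 and Ccl6 (4.43% of features), and 2 in marrow, Cxcl9 and Ccl5 (6.05%). No alternative setting called a feature for these diet effects.

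Cxcl9 in spleen had -2.08 on HFD and 0.51 on control diet in HDC-/-, -3.18 on HFD and -0.55 on control diet on arrays labelled STAT4-/-, -1.35 on HFD and -0.30 on control diet on those labelled STAT6-/-, and 0.21 on HFD and 1.59 on control diet in WT. In marrow it had -5.55 on HFD and -1.27 on control diet in HDC-/-, -6.15 on HFD and -4.49 on control diet on arrays labelled STAT4-/-, -6.03 on HFD and -5.50 on control diet on those labelled STAT6-/-, and -4.12 on HFD and -2.99 on control diet in WT. The HFD array thus read lower in 8 of 8 pairs, as for 0.445% of all features, while the groups as a whole overlapped. In marrow labelled STAT6-/- the HFD spot was not well above background, so the direction of that pair is not established, and the second Cxcl9 probe, above background on all 16 arrays, read -4.61 on HFD and -4.68 on control diet there and was lower on HFD in 7 of 8 pairs. The change was -1.91 in spleen (SE 0.54) and -1.90 in marrow (SE 0.54), and over both tissues the unadjusted p was 0.000548 but the adjusted p 0.391. With only the WT and labelled STAT6-/- arrays, which hold none of those with low Y-linked signal, it was -1.02 (SE 0.25).

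Ccl5 was lower on HFD in 7 of 8 pairs, by as much as 3.48 on the log2 scale in HDC-/- marrow (-3.48) and 3.36 in spleen labelled STAT4-/- (-3.36), but by -0.28 in WT spleen and -0.03 in spleen labelled STAT6-/-. Over both tissues it stood at -1.43 (SE 0.44, adjusted p = 0.391), and at -0.35 (SE 0.32) with only the WT and labelled STAT6-/- arrays. Ccl6 in spleen had 4.05 to 5.59 on HFD, against 5.71 to 6.02 on control diet, 2 ranges that do not overlap, as for 0.351% of features (change -0.79, SE 0.29, adjusted p = 0.779). In marrow Ccl6 stood at 0.03 (SE 0.29).

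For Cxcl1 and Cxcl2 the diet estimates came from HDC-/-. Cxcl1 was higher on HFD by 4.35 in HDC-/- spleen and 7.37 in HDC-/- marrow (at least 5.94, since the control spot was not well above background), and Cxcl2 by 4.81 in HDC-/- spleen and 4.21 in HDC-/- marrow. In the other genotypes the differences ran from -1.03 (WT spleen) to 0.87 (marrow labelled STAT4-/-) for Cxcl1 and from -0.64 (WT spleen) to 1.55 (marrow labelled STAT4-/-) for Cxcl2. The estimates over both tissues, 1.36 (SE 0.86) for Cxcl1 and 1.24 (SE 0.64) for Cxcl2, became -0.33 and -0.19 with only the WT and labelled STAT6-/- arrays. A fit added after these values were seen, with the tissues as replicates (7 residual degrees of freedom), tested whether the diet effect differed between genotypes. In limma's moderated F test 0 of 10 ligands and 0.0278% of features passed, with adjusted p of 0.205 for Cxcl1, 0.185 for Cxcl2 and 0.553 for Ccl3, and these 3 of 10 and 7.31% of features had an unadjusted p under 0.05. The HFD minus control estimate of Cxcl2 in that fit was 4.51 in HDC-/-, 0.82 on arrays labelled STAT4-/-, -0.33 on those labelled STAT6-/- and -0.05 in WT (SE 0.50 each). In HDC-/- and labelled STAT4-/-, the control-diet arrays had low Y-linked signal and the HFD arrays did not. Diet and this signal cannot be told apart in these genotypes, nor in the test of diet between genotypes.

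**Figure D4:**
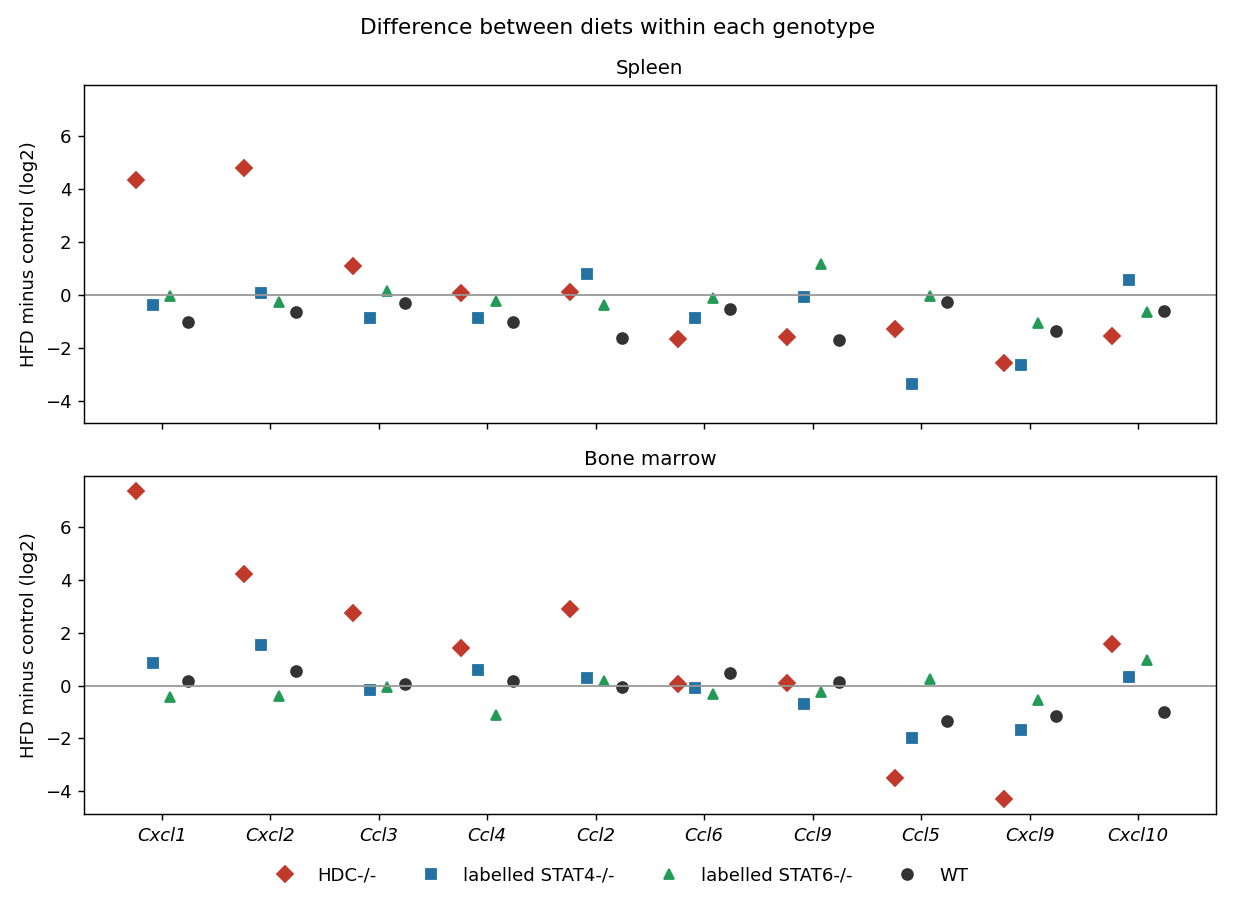
Difference between the HFD and the control array of each genotype (vertical axis, log2) for each ligand, in spleen (upper) and marrow (lower), with 1 point per genotype. The Cxcl9 values lie below 0 in all 8 pairs, the one for marrow labelled STAT6-/- resting on an HFD spot not well above background, and Cxcl1 and Cxcl2 stand far above 0 in HDC-/- (4.35 and 4.81 in spleen, 7.37 and 4.21 in marrow, the 7.37 against a control spot not well above background).

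The remaining estimates over both tissues were within their error or close to it, at 0.33 for Ccl3 (SE 0.35), -0.12 for Ccl4 (SE 0.27), 0.28 for Ccl2 (SE 0.36), -0.37 for Ccl9 (SE 0.31) and -0.05 for Cxcl10 (SE 0.31). The difference between the diet effects of the tissues passed for 0 of 10 ligands and 0.00% of features in limma (0 of 10 at an unadjusted p under 0.05, and 1.12% of features), with estimates between -1.27 (Cxcl1, SE 1.71) and 0.40 (Ccl5, SE 0.88), Cxcl9 at -0.01 (SE 0.77) and Ccl6 at -0.83 (SE 0.40). Of the 15 interferon-gamma genes 0 passed over both tissues and 3 had a positive change (median -0.55, against 0.13 over all features). Iigp1, another interferon-inducible GTPase gene, stood at -1.58 (SE 0.33) and was lower in 8 of 8 pairs, and Gbp3 stood at -1.43 (SE 0.35) and was lower in 7 of 8. Of the natural killer cell genes 0 of 10 passed and 1 was positive (median -1.21), and of the genes of NF-kB and its inducers 0 of 16 passed and 10 were positive (median 0.05). The mean level of the natural killer cell genes in spleen was -2.73 to 1.65 on HFD, against -0.35 to 2.00 on control diet, and in marrow -3.52 to -2.48 on HFD, against -3.12 to -0.63 on control diet.

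Which ligands went together over the 16 arrays? Correlations were taken after the mean of each tissue was removed, over arrays that share slides, pools of a genotype and the scaling, and they describe these arrays only. Cxcl1 and Cxcl2 gave Pearson r = 0.96 (Spearman 0.86), and Ccl3 gave 0.95 with Cxcl1 (Spearman 0.72), 0.90 with Cxcl2 (0.73) and 0.86 with Ccl4 (0.81). Without the 2 control-diet HDC-/- arrays, the farthest from the median, r was 0.73 for Cxcl1 with Cxcl2, 0.72 for Ccl3 with Cxcl1, 0.51 for Ccl3 with Cxcl2 and 0.77 for Ccl3 with Ccl4. With the mean level of the NF-kB list, r was 0.94 for Ccl3 (0.83 without the 2 farthest arrays), 0.93 for Ccl4 (0.84), 0.89 for Cxcl1 (0.77) and 0.84 for Cxcl2 (0.70).

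Ccl5 followed lymphoid genes, with r = 0.94 for the natural killer cell list (0.87 without the 2 farthest arrays), 0.96 for the B cell list (0.88), 0.84 for the T cell list (0.59) and 0.80 for Cxcl9 (0.69). The 2 arrays left out were the ones nearer the other tissue. Cxcl9 gave 0.85 with the interferon-gamma list (Spearman 0.90, and r = 0.90 without the 2 farthest arrays), whereas Cxcl10 gave 0.37 with that list (Spearman 0.31, and r = 0.45 without the 2 farthest arrays) and -0.09 with Cxcl9 (0.33 without the 2 farthest arrays). Ccl9 gave 0.90 with the classical monocyte list (Spearman 0.87), and 0.81 without the 2 farthest arrays.

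**Figure D5:**
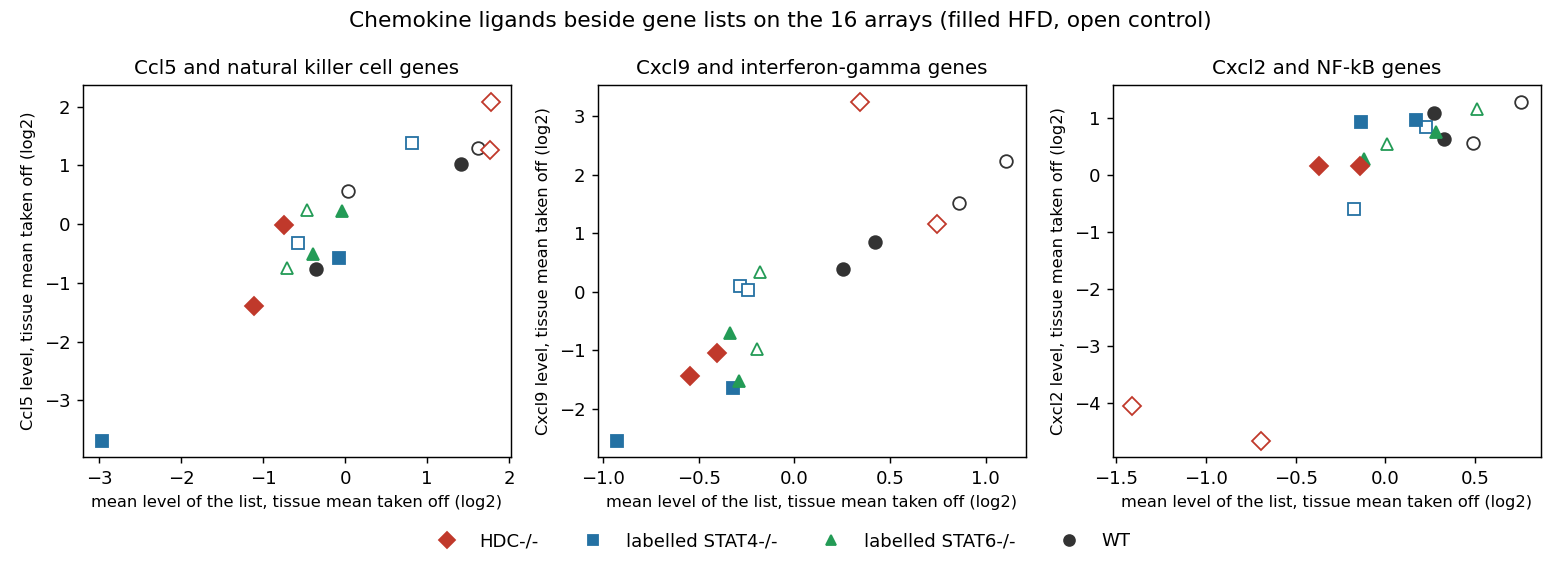
Log2 level of a ligand (vertical axis) against the mean log2 level of a gene list (horizontal axis) on the 16 arrays, each with the mean of its tissue taken off, filled for HFD and open for control diet. Ccl5 lies along the natural killer cell list (r = 0.94) and Cxcl9 along the interferon-gamma list (r = 0.85), and in the right panel the 2 control-diet HDC-/- arrays stand apart for Cxcl2.

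Among 15615 features above background on at least 12 arrays, the 3 symbols whose levels followed each ligand most closely over the 16 arrays were the following. Cxcl1 was nearest to Bhlhe40 (r = 0.99), Rhov (0.98) and Tnfaip3 (0.97). Cxcl2 was nearest to its relative Cxcl3 (0.99), Rhov (0.98) and Dnajb9 (0.97). For Ccl3 they were Mafk (0.97), Hcar2 (0.97) and Zfand2a (0.96), and for Ccl4 D16Ertd472e (0.96), Il23a (0.96) and Acod1 (0.95). Ccl2 had looser neighbours, Cdkn1a (0.80), Ccdc86 (0.78) and the Y-linked gene Eif2s3y (0.77), and it stood at -0.64, -0.53, -0.17 and 1.13 on the 4 arrays of low Y-linked signal. Ccl6 went with Smox (0.92), Dennd4a (0.86) and Adgre5 (0.86), and Ccl9 with Sestd1 (0.95), Mfsd7a (0.95) and Colec12 (0.93). Ccl5 went with Eomes (0.98), a transcription factor of natural killer and CD8 T cells, Gpr171 (0.97) and the T cell kinase gene Lck (0.97). Cxcl9 went with the interferon-inducible genes Gbp3 (0.92), Gm4951 (0.92) and Tgtp2 (0.91), and Cxcl10 with Rasl12 (0.89), Ccm2 (0.89) and Zfp710 (0.85).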

How the data were processed

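Total RNA of CD11b-positive cells, pooled from 5 mice per sample, was labelled with Cy3 and hybridised to 16 arrays, 1 per combination of 4 genotypes, 2 tissues and 2 diets. Per the file headers, the authors extracted the deposited intensity values with Agilent Feature Extraction 11.0.1.1, whose processed signal is background-subtracted and is not scaled between arrays. Values were log2 of this intensity less the 75th percentile of the same array. Spots with outlier or non-uniformity flags were left out, and 305 probes with no usable spot on some array did not enter the tests. Of 39429 noncontrol probes, 27234 (69.1%) were matched by accession to a RefSeq symbol. The brightest probe stood for a gene, and features well above background on at least 2 arrays were tested (28783, no spot saturated).

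limma 3.58.1 in R 4.3.3 fitted genotype means separately by tissue with a diet effect per tissue, which left 6 degrees of freedom. Tests were two-sided, with Benjamini-Hochberg adjustment over all features and calls at an adjusted p under 0.05. The fit was tested on simulated data. Groups came from the labels. Coordinates of the array's older genome build were not used; those printed belong to the promoter table. Arrays were the unit of replication, and their number limits the precision of every estimate.

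The 10 ligands, the gene lists and the alternatives were chosen with earlier results of these data known. All 10 ligands were to be named in each comparison; the difference between the diet effects is given by its range. Of each list the called genes are named, at most 4 by smallest adjusted p, or the 2 with the largest change where none was called, and for each ligand the 3 nearest symbols. Not every list is described in every comparison. Some results on list genes and motifs are not reported here. Alternatives covered scaling, background correction (normexp, offset 50, on median spot and background signals), the filter on dim probes, probe choice, the prior, the model, slide as a random block, and arrays left out. Added after seeing the data were a fit paired by genotype and diet and the test of diet between genotypes.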

Additional observations from a re-analysis of the deposited data

Results flagged for a closer look

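In 3 of 40 sets of 4 arrays (1 ligand in 1 tissue and diet), the HDC-/- array lay far below the other 3 genotypes, by more than the 95% limit for a gap between the lowest value and the next. Chance marks about 5% of such sets, and 3 of 40 is close to that share. The sets share arrays, so they are not independent, and the 4 values of a set are different genotypes, not replicates. All 3 marked sets were on the control diet. Ccl3 in marrow read 2.12 in HDC-/-, against 5.43 to 5.89 in the other genotypes. Cxcl1 in marrow read -7.32 in HDC-/-, where its spot was not well above background, against -0.58 to 0.73. Cxcl2 in spleen read -0.36 in HDC-/-, against 4.84 to 5.57. Both arrays were among the 4 of low Y-linked signal, and the marrow array was also nearer the other tissue.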

How the results depend on the processing

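In spleen against marrow 4 ligands passed with the settings reported, 2 without the arrays of low Y-linked signal and 2 to 5 when 1 array was left out, and Cxcl9 and Ccl5 passed under every setting. Against WT, HDC-/- gave 1 ligand with the settings reported, 0 with quantile normalization, 0 with the percentile over probes above background, 0 without the arrays of low Y-linked signal, 0 without the arrays nearer the other tissue, and 0 to 3 when 1 array was left out (3 without the HFD HDC-/- marrow array). The cause was not tested, though settings with fewer arrays have fewer degrees of freedom. In the other comparisons 0 of 10 ligands passed under any setting, and no called ligand changed sign. Estimates with no call did, among them diet over both tissues for Cxcl1 (1.36, and -0.33 with only WT and labelled STAT6-/- arrays) and Cxcl2 (1.24, and -0.19). Features called between the tissues numbered 9124, and 3710 to 11083 over the settings; for HDC-/- against WT they numbered 44, and 4 to 237. They numbered 5, and 2 to 18, for labelled STAT4-/- against WT, 9, and 3 to 16, for labelled STAT6-/- against WT, and 3, and 2 to 13, for HDC-/- against labelled STAT6-/-. No paired analysis by replicate number was possible because replicate numbers do not go past 1 in any group; an added fit that paired spleen and marrow arrays by genotype and diet, chosen after seeing the data, called 4 ligands, with Ccl3 (-0.68, adjusted p = 0.0460) in and Cxcl10 (0.95, adjusted p = 0.108) out. The dim spots of Cxcl1 (1 array) and Cxcl9 (1 array) give only a bound there.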
